A study of Mus musculus with 32 samples.

Results

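Antibodies are built from heavy and light chains, and the constant region of the heavy chain sets the antibody's class. Transcripts of 10 constant region genes were followed through the mouse bladder at 3 ages and after 3 oral treatments: Ighm, Ighd, Ighg1, Ighg2b, Ighg2c, Ighg3, Igha and Ighe for the heavy chains, and Igkc and Iglc1 for the light chains. They were taken by symbol from a count table of 32285 genes, in which all 10 were found, and they are 10 of the 427 immunoglobulin genes and segments that the annotation lists. For each bladder the level of a gene was expressed as CPM (counts relative to the total of the library, after the totals were scaled by the trimmed mean of M-values, TMM), and each gene was also expressed as a percent of the summed counts of the 10 genes.

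A B cell that has not met its antigen makes IgM and IgD from 1 transcription unit, with Ighm and Ighd spliced as alternatives. After activation, a recombination can remove Ighm and Ighd and place a downstream constant gene next to the variable region, which switches the cell to an IgG subclass, to IgE or to IgA. Plasma cells, the secreting end of this lineage, carry far more immunoglobulin mRNA per cell than resting B cells and also make the J chain that joins IgM and IgA into polymers. In the bladder wall of aged mice, B cells and plasma cells are known to collect in organised lymphoid aggregates. C57BL/6 mice carry Ighg2c at the locus where some other strains carry Ighg2a.

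The 8 heavy chain genes lie in a row on the minus strand of chromosome 12 (build mm10, GENCODE M21 annotation), in the order in which they are transcribed. Ighm (ENSMUSG00000076617) is at chr12:113418558-113422730 and Ighd at chr12:113406604-113416324. They are followed by Ighg3 at chr12:113356224-113361232, Ighg1 at chr12:113325240-113330523, Ighg2b at chr12:113302965-113307933 and Ighg2c at chr12:113285325-113288932. Ighe is at chr12:113269260-113273248, and Igha closes the locus at chr12:113254830-113260236. The kappa gene Igkc is at chr6:70726435-70726966 on the plus strand, and the lambda gene Iglc1 is at chr16:19061618-19062071 on the minus strand.

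The IgG subclasses are the members whose reads could most easily be confused. Their first constant domain exons (291 bases) were 88.3% identical between Ighg1 and Ighg2b, 88.0% between Ighg1 and Ighg2c, and 87.6% between Ighg2b and Ighg2c, while Ighg3 shared 78.4 to 79.0% with the others. The hinge exons, which encode the flexible stretch between the arms and the stem of IgG, differ in length and are shown for that reason. Percent identity was not computed for them. Each is a coding exon, written 5′ to 3′ on the minus strand, with capitals for a run of at least 8 bases that another subclass's hinge also holds.
Ighg3, chr12:113360529-113360576: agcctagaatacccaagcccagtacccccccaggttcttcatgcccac
Ighg1, chr12:113329844-113329882: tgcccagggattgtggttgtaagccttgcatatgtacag
Ighg2b, chr12:113307261-113307326: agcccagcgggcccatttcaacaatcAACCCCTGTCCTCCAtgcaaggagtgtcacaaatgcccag
Ighg2c, chr12:113288263-113288325: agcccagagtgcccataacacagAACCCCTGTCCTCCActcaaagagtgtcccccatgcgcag
The 4 hinges are 48, 39, 66 and 63 bases long in the order shown. The capitals mark the 15 bases that Ighg2b and Ighg2c have in common, and the hinges of Ighg3 and Ighg1 held no such run.

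The lambda genes are a further family of near copies. Their identity matters because in 1 bladder below Iglc1 was 51.9% of the summed Igkc and Iglc1 counts. The 60 bases that open the constant exon are shown for Iglc1 and for the 3 lambda genes outside the list, on the minus strand, with capitals where a base differs from Iglc1.
Iglc1, chr16:19062012-19062071: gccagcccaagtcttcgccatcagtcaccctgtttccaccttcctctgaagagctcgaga
Iglc2, chr16:19198793-19198852: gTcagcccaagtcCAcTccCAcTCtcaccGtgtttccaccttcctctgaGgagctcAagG
Iglc3, chr16:19065622-19065681: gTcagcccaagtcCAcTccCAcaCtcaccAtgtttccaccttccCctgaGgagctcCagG
Iglc4, chr16:19195253-19195312: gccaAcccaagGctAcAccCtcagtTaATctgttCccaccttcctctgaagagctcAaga
Iglc2 and Iglc3 differed from Iglc1 at 12 of these positions and Iglc4 at 10. When every stretch of 75 bases in the annotated exons was looked up in all other genes, none was shared for Ighm, Ighd, Ighg1, Igha, Ighe, Igkc or Iglc1. The shared part was 0.768% of such stretches for Ighg2b, 0.480% for Ighg2c and 0.574% for Ighg3.

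Whole bladders of female C57BL/6 mice were sequenced as total RNA, 1 library per sample and 32 libraries in all. Young mice were 2 months old (n = 6), middle-aged mice 10 months (n = 5) and old mice 26 months. The old mice were left untreated (n = 6) or were gavaged from 21 to 26 months of age on 3 consecutive days a month with water (n = 5), with vehicle (n = 4) or with dasatinib and quercetin in that vehicle (D + Q, n = 6). The vehicle was 60% Phosal 50 PG, 30% PEG 400 and 10% ethanol, and the doses were 5 mg/kg/day dasatinib, a kinase inhibitor, and 50 mg/kg/day quercetin, a flavonoid, given together to clear senescent cells. No animal was genetically modified, no batch is given in the labels, and the design asks whether the age-related change in the bladder is altered by the drugs.

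Library totals ran from 15088372 to 52650259 counts, and the 10 genes took 0.002 to 0.006% of a young library, 0.006 to 0.052% of a middle-aged one and 0.283 to 2.03% of an untreated old one. Markers of urothelium and smooth muscle were present in every library. Libraries of 2 old mice held the highest and the lowest Ighm of the 21 old bladders. Untreated old replicate 6 had the highest Ighm of all 32 bladders, 11001 CPM, and Ighm had the most counts of any gene in its library. Counts are not corrected for the length of a gene. Vehicle-treated replicate 1 had 117 CPM of Ighm, against 3372 to 6193 CPM in the other 3 vehicle-treated bladders. Results that rest on either are given without it as well. Other bladders with outlying values, among them D + Q-treated replicate 6 and water-treated replicate 3, are described near the end.

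**Figure D1:**
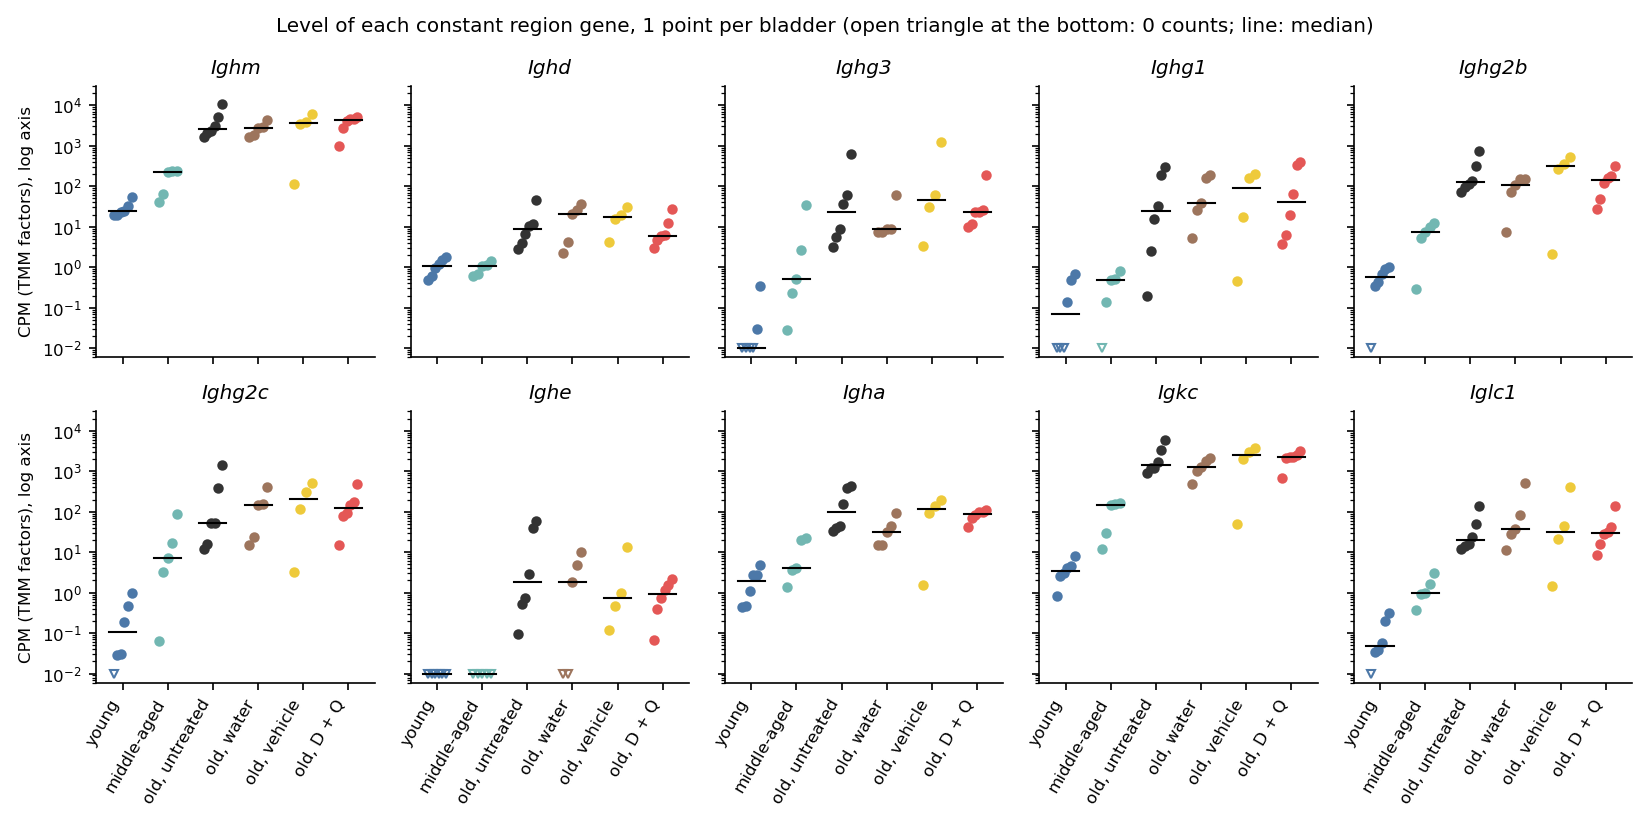
Level of each of the 10 constant region genes in CPM on a log axis, 1 panel per gene and 1 point per bladder by group; open triangles at the bottom are bladders with 0 counts and the lines are group medians. Ighm runs from 19.7 CPM in a young bladder to 11001 CPM in an old one, Ighe is at 0 counts in all 11 young and middle-aged bladders, and the D + Q points overlap the untreated old points for every gene.

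The first comparison asked what had changed by middle age. IgM heavy chain, kappa and lambda light chains and the IgG2b and IgG2c subclasses rose between 2 and 10 months, while IgD did not pass the test. Of the 8 genes with enough counts to be tested, 5 rose at an adjusted p under 0.05 (edgeR's quasi-likelihood test, Benjamini-Hochberg over all genes tested), beside 4.96% of all 16754 genes tested, and none fell. With all 6 groups in 1 model 3 rose, and the calls of Ighg2b and Iglc1 were lost. Only Igkc and Iglc1 had middle-aged levels above every young level, 2 of 8 beside 3.37% of all genes. On the log2 scale the 8 tested genes had a median change of 3.05 and all genes tested one of 0.00. In RNA from whole bladder, more cells of a type and more RNA per cell cannot be told apart, which holds for all levels given here.

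Ighm, the heavy chain of IgM, was at 19.7 to 54.8 CPM in young bladders, with a median of 24.1 CPM. The 5 middle-aged bladders held 41.1, 64.0, 224, 242 and 244 CPM. In 3 of them Ighm was far above all young bladders and in 2 it lay within or just above the young range, so the groups overlapped, and the rise was 2.48 ± 0.45 on the log2 scale (SE; adjusted p = 0.00570, edgeR's quasi-likelihood test). Igkc, the constant region of most mouse light chains, was at 0.841 to 8.21 CPM in the young group, with a median of 3.51 CPM. In middle age it reached 11.8, 29.9, 149, 158 and 165 CPM, which gave a log2 fold change of 4.65 ± 0.66 (adjusted p = 0.00186, edgeR). The 2 bladders with the lowest Ighm were also the 2 with the lowest Igkc.

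Iglc1 was at 0 to 0.306 CPM in young bladders and at 0.380, 0.923, 0.978, 1.64 and 3.01 CPM in middle age, a log2 fold change of 3.63 ± 0.64 (adjusted p = 0.00532, edgeR) that was 4.50 without young replicate 2. This call was lost with all 6 groups in 1 model (adjusted p = 0.374, edgeR). The young values lay around the 0.0873 to 0.205 CPM that 3 counts would give, so the young level is close to the limit of detection. Ighg2b, an IgG subclass that binds complement and activating Fc receptors, rose by 3.62 ± 0.68 on the log2 scale (adjusted p = 0.00706, edgeR; 0.0578 with all 6 groups in 1 model), from at most 1.01 CPM in young bladders to 5.22 to 12.5 CPM in 4 of the middle-aged ones. The remaining middle-aged bladder, replicate 2, held 0.285 CPM and fell inside the young range.

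Ighg2c, the subclass that interferon gamma favours, had the widest spread among the middle-aged bladders, with 0.0634, 3.19, 7.30, 16.9 and 89.3 CPM. Its log2 fold change was 6.34 ± 1.32 (adjusted p = 0.0118, edgeR), and it was 4.56 without middle-aged replicate 3, the bladder at 89.3 CPM, and 7.55 without young replicate 6. Igha, the heavy chain of mucosal IgA, was the most abundant class-switched member in young bladders, at 0.437 to 4.83 CPM, and reached 1.36, 3.69, 3.96, 20.0 and 23.1 CPM in middle age. Its log2 fold change of 2.35 ± 0.73 did not pass the test (adjusted p = 0.0550, edgeR). Ighd stayed at 0.495 to 1.77 CPM in the young and 0.610 to 1.42 CPM in the middle-aged bladders, a log2 fold change of -0.08 ± 0.33 (adjusted p = 0.902, edgeR). Ighg1 was at or below 0.815 CPM in all middle-aged bladders (log2 fold change 0.85 ± 0.89), and Ighg3 and Ighe had too few counts to be tested, although middle-aged replicate 5 held 34.9 CPM of Ighg3.

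The makeup of the antibody transcripts also differed between these ages. Ighm made up 77.2% ± 9.54 (SD, n = 6) of the constant region counts in young bladders and 55.8% ± 9.43 (n = 5) in middle-aged ones (two-sided exact permutation p = 0.0130). Igkc went the other way, from 10.2% ± 5.61 to 29.4% ± 6.01 (exact permutation p = 0.00433, the smallest this design allows). Ighd fell from 3.09% ± 1.65 to 0.613% ± 0.698 (exact permutation p = 0.00866). These percentages sum to 100 and are not independent of each other. With heavy and light chains taken as separate totals, Ighm differed by -6.69 percentage points of the heavy chains (exact permutation p = 0.255), and Igkc by 0.458 percentage points of the light chains (exact permutation p = 0.805), while the fall of Ighd kept an exact permutation p of 0.00866. Heavy chain genes together were 89.6% ± 5.60 of the constant region counts in young and 69.9% ± 5.77 in middle-aged bladders. In all, 49 shares were compared over the 5 comparisons of shares, with 4 exact permutation p-values under 0.05 and no adjustment for their number.

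Expressed per length (TPM, counts divided by the length of the annotated exons and brought to the same sum in every library), Ighm was the most abundant of the 10 genes in 6 of 6 young bladders and Igkc the next. In middle-aged bladders Igkc was the most abundant in 5 of 5, and in old bladders in 20 of 21. The mean in young bladders was 54.3 TPM for Ighm and 25.8 TPM for Igkc. In untreated old bladders it was 7446 TPM for Ighm and 14751 TPM for Igkc, followed by Ighg2c at 786 TPM, Iglc1 at 317 TPM, Ighg2b at 301 TPM and Igha at 225 TPM. Ighg3 came next at 157 TPM, then Ighg1 at 113 TPM, Ighe at 36.4 TPM and Ighd at 25.4 TPM.

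The comparison of untreated old with middle-aged bladders asked what was added between 10 and 26 months. IgM, IgD, IgG1, IgG2b, IgE, IgA and both light chains rose, and the IgG2c and IgG3 subclasses did not pass the test. Of the 10 genes, 8 rose at an adjusted p under 0.05 (edgeR's quasi-likelihood test), beside 13.0% of the 17156 genes tested, and none fell. For 7 genes, Ighm, Ighd, Ighg2b, Ighe, Igha, Igkc and Iglc1, every untreated old bladder lay above every middle-aged one, beside 8.49% of all genes. The 10 genes had a median of 4.60 on the log2 scale, and all genes tested had one of -0.00.

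**Figure D2:**
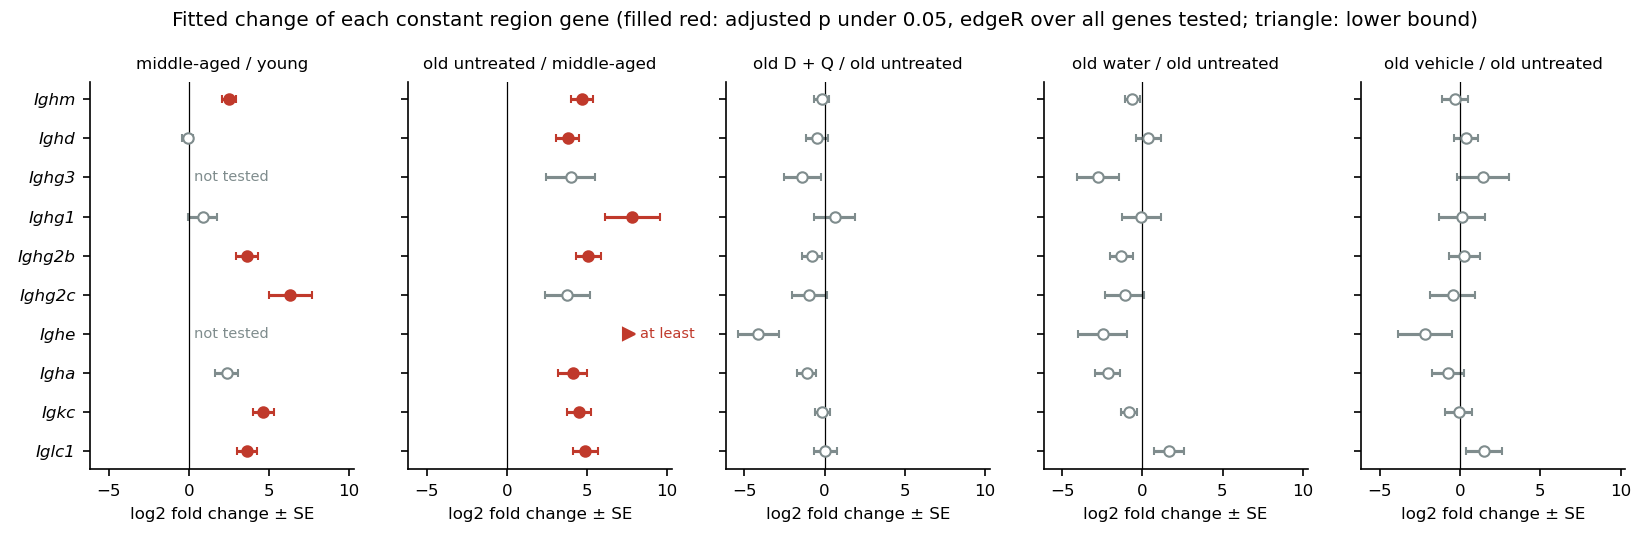
Log2 fold change of each constant region gene, with bars of 1 standard error, in 5 panels: middle-aged against young, untreated old against middle-aged, and the D + Q, water and vehicle groups each against untreated old bladders. Filled red points pass an adjusted p under 0.05, open points do not, and Ighe in old against middle-aged bladders is a triangle at its lower bound of 7.62. The 8 genes called in that panel lie to the right of 0, and no gene is filled in the 3 treatment panels.

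Ighm ranged from 1632 to 11001 CPM in untreated old bladders, with a median of 2647 CPM, so that its lowest value lay far above the highest middle-aged value of 244 CPM. The log2 fold change was 4.69 ± 0.67 (adjusted p = 0.000344, edgeR's quasi-likelihood test), and 4.12 without untreated old replicate 6. Ighd, the other heavy chain of naive B cells, ranged from 2.86 to 47.1 CPM with a median of 8.68 CPM, a log2 fold change of 3.80 ± 0.72 (adjusted p = 0.00233, edgeR). It was 2.85 without untreated old replicate 2, which held the 47.1 CPM. The lowest old Ighd value, 2.86 CPM, was close to the highest middle-aged value of 1.42 CPM, so the separation of Ighd was narrower than that of Ighm.

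Among the IgG subclasses, Ighg2b gave the most even rise, to between 70.9 and 728 CPM with a median of 126 CPM. Its log2 fold change was 5.10 ± 0.78 (adjusted p = 0.000515, edgeR), and 4.36 without untreated old replicate 6. Ighg1, the subclass that interleukin 4 favours, was at 0.193 CPM in untreated old replicate 3 and at 2.52, 15.4, 32.9, 186 and 294 CPM in the others. One old bladder thus lay within the middle-aged range of 0 to 0.815 CPM, and the log2 fold change was 7.84 ± 1.72 (adjusted p = 0.00556, edgeR), or 6.92 without untreated old replicate 6.

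Ighg2c spanned 12.01 to 1419 CPM in untreated old bladders, with a median of 53.2 CPM, and 4 of the 6 lay at or below the 89.3 CPM of middle-aged replicate 3. Its log2 fold change of 3.78 ± 1.42 did not pass the test (adjusted p = 0.0728, edgeR), and without middle-aged replicate 3 it was 5.57 and passed (adjusted p = 0.0319, edgeR). It was 2.12 without untreated old replicate 6, the bladder at 1419 CPM. Ighg3, an IgG subclass made largely against carbohydrate antigens, spanned 3.12 to 625 CPM with a median of 23.0 CPM. Its log2 fold change of 3.99 ± 1.54 did not pass either (adjusted p = 0.0809, edgeR). It was 7.19 without middle-aged replicate 5 (adjusted p = 0.0257, edgeR) and 1.57 without untreated old replicate 6, so single bladders of both ages set its size.

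Ighe, the heavy chain of IgE, the antibody that arms mast cells, had 0 counts in all 6 young and 5 middle-aged bladders. The 6 untreated old bladders held 4, 17, 23, 101, 1441 and 3096 counts, or 0.0971, 0.534, 0.740, 2.86, 40.7 and 59.0 CPM. A count of 0 in a library allows up to 3 counts, which is 0.0814 to 0.0978 CPM in the middle-aged libraries, and 5 of the 6 old bladders exceeded the highest of these limits. Against the mean of that limit, the mean of the old bladders was at least 197-fold higher and their median at least 20.5-fold higher. Without untreated old replicate 6 the mean was at least 102-fold higher. The adjusted p was 0.0301 (edgeR's quasi-likelihood test). With 1 bladder left out, Ighe had enough counts to be tested in only 6 of 11 fits. In 3 of these 6, without middle-aged replicate 1, 3 or 5, the adjusted p lay between 0.0505 and 0.0535 (edgeR). Untreated old replicates 2 and 6, which held nearly all Ighe counts, were also the 2 untreated old bladders with the most Ighg1.

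Igha rose to between 33.0 and 424 CPM in untreated old bladders, with a median of 99.7 CPM, a log2 fold change of 4.12 ± 0.91 (adjusted p = 0.00590, edgeR). The 2 highest bladders, replicates 5 and 6, held 424 and 378 CPM, and the other 4 held 33.0 to 156 CPM. Igkc reached 907 to 5798 CPM with a median of 1449 CPM, a log2 fold change of 4.52 ± 0.76 (adjusted p = 0.00105, edgeR). Iglc1 reached 12.3 to 138 CPM with a median of 19.8 CPM, a log2 fold change of 4.91 ± 0.79 (adjusted p = 0.000760, edgeR), and 4.05 without untreated old replicate 5, the bladder at 138 CPM.

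The mean shares of Ighm and Igkc moved little over the interval in which the levels rose. Smaller shares varied widely between bladders. Ighg2c ran from 0.108 to 17.4% in middle-aged and from 0.295 to 6.97% in untreated old bladders. Ighg1 ran from 0 to 0.449% and from 0.00690 to 4.95%. A share without a small p was not thereby shown to be stable. Ighm made up 56.6% ± 2.41 (n = 6) of the constant region counts in untreated old bladders and 55.8% ± 9.43 (n = 5) in middle-aged ones (two-sided exact permutation p = 0.797). Igkc made up 31.7% ± 2.15 and 29.4% ± 6.01 (exact permutation p = 0.455). The SD of the Ighm share was 2.41 percentage points in the old group, although the Ighm level itself ran from 1632 to 11001 CPM. Ighe, at 0.248% ± 0.424 against 0%, was the 1 share of 10 with an exact permutation p under 0.05, and its p of 0.00433 was the smallest the design allows. With 0 counts in every middle-aged bladder, any count above 0 in every old bladder gives this p, whatever the share. In middle-aged bladders 3 counts are 0.0160 to 0.162% of the constant region counts. Untreated old replicates 1 (0.00566%) and 5 (0.00177%) lay below these limits, so for them a change of share cannot be told from depth.

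**Figure D3:**
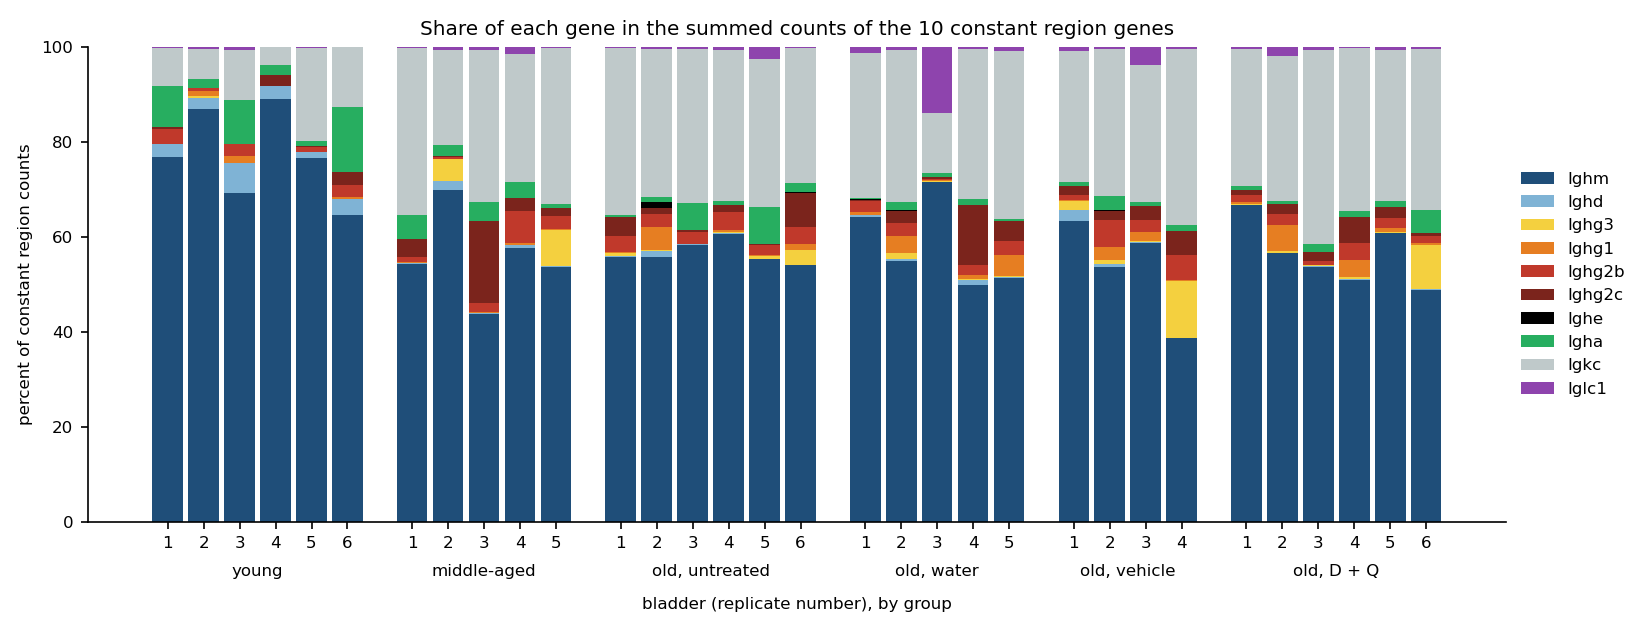
Share of the summed constant region counts taken by each gene in each of the 32 bladders, in percent, as stacked bars that each sum to 100. Ighm and Igkc together fill most of every bar, and the water-treated replicate 3 bar differs by a visible Iglc1 block of 13.8%.

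The treated old groups were each compared with the untreated old bladders, which therefore stand as the shared reference of 3 comparisons. After D + Q, Ighm was at 989 to 5172 CPM with a median of 4342 CPM, inside the untreated range of 1632 to 11001 CPM except for replicate 6 at 989 CPM. The log2 fold change was -0.18 ± 0.48 (adjusted p = 0.889, edgeR's quasi-likelihood test). Of the 10 genes, 0 passed the adjusted threshold, beside 0% of the 17037 genes tested. At an unadjusted p under 0.05 there was 1 member, Ighe, beside 12.9% of all genes, and DESeq2 also called 0 members.

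Ighe after D + Q was at 0.0687 to 2.16 CPM with a median of 0.949 CPM, against 0.0971 to 59.0 CPM in untreated old bladders. All 6 D + Q values lay below the 3 highest untreated values, but they overlapped the 3 lowest, and the log2 fold change of -4.12 ± 1.29 had an adjusted p of 0.292 (edgeR). The other members had log2 fold changes from -1.39 for Ighg3 to 0.63 for Ighg1. Igkc was at 687 to 3116 CPM with a median of 2225 CPM (log2 fold change -0.14 ± 0.45), and Igha at 42.0 to 110 CPM with a median of 89.3 CPM (log2 fold change -1.11 ± 0.60, adjusted p = 0.447, edgeR). All 6 of these Igha values lay inside the untreated range of 33.0 to 424 CPM.

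After water gavage, Ighm was at 1636, 1880, 2684, 2990 and 4368 CPM, and after vehicle at 117, 3372, 3981 and 6193 CPM. Water-treated bladders all lay inside the untreated range, with a log2 fold change of -0.63 ± 0.47 (adjusted p = 0.542, edgeR), and the vehicle comparison gave -0.30 ± 0.81 (adjusted p = 0.929, edgeR). Neither group had a member past the adjusted threshold, beside 0.487% of all genes that rose and 0.516% that fell after water, and 0% after vehicle. At an unadjusted p under 0.05 the count was 1 for water, Igha, beside 16.0% of all genes, and 0 for vehicle, beside 8.39%. Igha was at 14.9, 14.9, 31.2, 43.4 and 92.9 CPM after water, a log2 fold change of -2.16 ± 0.79 with an adjusted p of 0.207 (edgeR). DESeq2 called 0 members in both.

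Between D + Q and its vehicle, 0 of 10 members passed the adjusted threshold, beside 0% of 17267 genes, and 0 had an unadjusted p under 0.05, beside 4.18%. Ighm differed by 0.12 ± 0.73 on the log2 scale (SE), and Ighg3 showed the widest difference, -2.82 ± 1.29 (adjusted p = 0.994, edgeR). Vehicle-treated replicate 4 held 1239 CPM of Ighg3 and the other 3 vehicle-treated bladders held 3.32, 30.1 and 60.4 CPM. The means of Ighm placed the groups in the order young, middle-aged, water, vehicle, D + Q and untreated old, at 29.1 ± 13.4, 163 ± 102, 2712 ± 1081, 3416 ± 2511, 3720 ± 1570 and 4213 ± 3565 CPM (SD). The 4 old groups differed from their neighbours in that order by less than their SDs. Untreated old replicate 6, at 11001 CPM, and vehicle-treated replicate 1, at 117 CPM, weigh on these means. By median, untreated old bladders were the lowest of the old groups at 2647 CPM, followed by water at 2684, vehicle at 3676 and D + Q at 4342 CPM.

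No share of a class differed between treated and untreated old bladders at an exact permutation p under 0.05, over 10 shares in each of 3 comparisons. Ighm took 56.2% ± 6.61 of the constant region counts after D + Q. Ighg2b had the lowest p, at 1.99% ± 0.925 after D + Q against 2.97% ± 0.636 in untreated old bladders (two-sided exact permutation p = 0.0606). The share of Ighe was 0.0156% after D + Q against 0.248% (exact permutation p = 0.130).

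All heavy chain counts other than Ighm and Ighd are called class-switched here. Whether each such transcript came from a recombined locus cannot be read from counts per gene. The class-switched counts were a minor part of the heavy chain counts at every age. They were 10.3% ± 7.73 in young bladders, 19.7% ± 9.26 in middle-aged and 15.6% ± 4.84 in untreated old ones. Across the 21 old bladders the median was 16.0%, with the lowest value in water-treated replicate 3 at 2.41% and the highest in vehicle-treated replicate 4 at 38.0%.

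Which switched class led by counts differed from bladder to bladder. Over the 21 old bladders Ighg2c led in 7, Ighg1 in 4, Ighg2b in 4, Igha in 3 and Ighg3 in 3, so each of the 5 switched genes other than Ighe led somewhere. These counts are not per length, and Ighg2c has 1326 exon bases against 2512 to 2678 for the other IgG genes and Igha. By TPM, Ighg2c also led in water-treated replicates 2 (380 TPM, Ighg1 265) and 5 (386 TPM, Ighg1 212). The same held for vehicle-treated replicate 1 (8.78 TPM, Ighg3 4.70) and D + Q-treated replicate 1 (207 TPM, Ighg2b 152). In the untreated group Ighg2c led in replicates 1 and 6, with 45.6% and 40.5% of the switched counts, Ighg1 in replicate 2 with 44.0%, Ighg2b in replicate 4 with 54.3%, and Igha in replicates 3 and 5 with 64.2% and 71.2%. The 95% Wilson interval of the share in replicate 5 was 70.7 to 71.8%, so counting error is small beside these differences, and such intervals cover counting error only. In the water group Ighg2c took 73.8% of the switched counts in replicate 4, with a Wilson interval of 73.3 to 74.3%.

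The treated groups showed the same variety by counts. Ighg3 led in D + Q-treated replicate 6 with 56.3%, Ighg1 in replicate 2 with 49.9%, Ighg2b in replicate 1 with 38.0%, and Ighg2c in the other 3 with 34.0 to 39.9%. In the vehicle group Ighg3 led in replicates 1 and 4, Ighg2b in replicate 2 and Ighg2c in replicate 3. Among the middle-aged bladders Ighg3 led in 2, and Igha, Ighg2c and Ighg2b in 1 each, while in all 6 young bladders Igha led or tied for the lead.

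**Figure D4:**
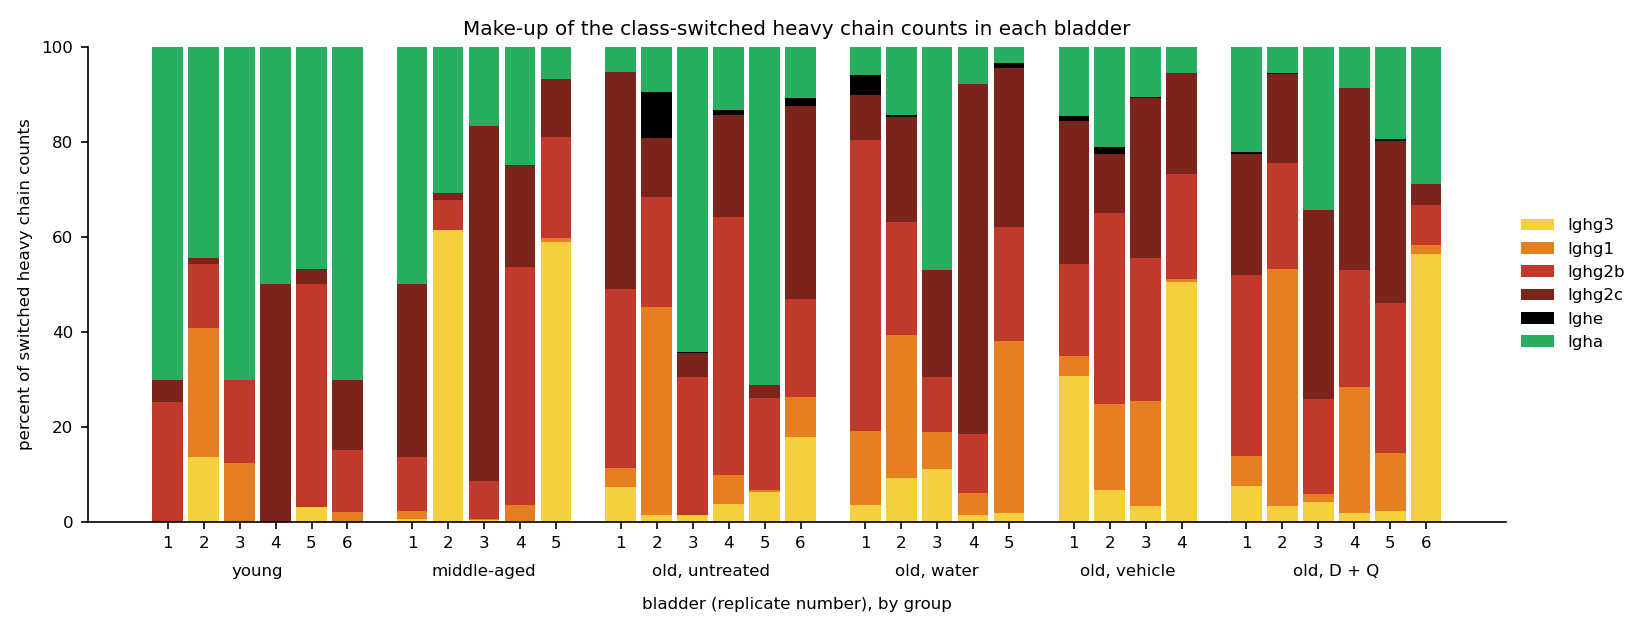
Share of the class-switched heavy chain counts taken by Ighg3, Ighg1, Ighg2b, Ighg2c, Ighe and Igha in each bladder, in percent, as stacked bars that each sum to 100. The leading gene changes from bladder to bladder within every group of old mice, from 73.8% Ighg2c in a water-treated bladder to 71.2% Igha in an untreated one.

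The light chains showed 1 bladder of a different kind. Iglc1 was 51.9% of the summed Igkc and Iglc1 counts in water-treated replicate 3 (95% Wilson interval 51.4 to 52.4%), with 18421 counts of Iglc1 and 17054 of Igkc. The median over all 21 old bladders was 1.54%, and the next highest were vehicle-treated replicate 3 at 11.8%, untreated old replicate 5 at 7.44% and D + Q-treated replicate 2 at 5.90%. In that water-treated bladder the Ighm level was 2684 CPM, within its group, while Ighg2b was 7.59 CPM against 70.2 to 154 CPM in the other 4.

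Iglc2, the lambda gene that differs from Iglc1 at 12 of the 60 bases shown above, stood out in another bladder. It was at 511 CPM in untreated old replicate 6 and at 10.0 to 16.8 CPM in the other 5 untreated old bladders, and it made up 87.5% of the lambda counts there. In water-treated replicate 3 it was 1.49% of the lambda counts. The excess lambda of the 2 bladders came from different genes.

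Ighd followed Ighm loosely. Its share of the summed Ighm and Ighd counts was 3.95% ± 2.33 in young bladders, 0.976% in middle-aged and 0.526% in untreated old ones. Vehicle-treated replicate 1, the old bladder with little Ighm, had 3.48%. Its Ighd of 4.21 CPM was inside the range of the untreated old group, and Cd79a, a signalling chain of the B cell receptor, was at 10.3 CPM, within the 4.44 to 69.4 CPM of all old bladders. Its Jchain was 5.51 CPM, against 71.6 to 735 CPM in the other 20. The ratio of Ighm to Cd79a was 11.4 in that bladder and 90.8 to 207 in the other 3 vehicle-treated ones. It was 183 to 267 after D + Q, 64.9 to 329 in untreated old and 33.3 to 246 in water-treated bladders. The ratio of Ighm to Jchain ran only from 11.2 to 24.1 over all 21 old bladders.

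The bladders of 1 group differed more for the constant regions than for most genes. The pooled within-group SD over the 21 old bladders, on the log2(CPM + 0.1) scale, was 3.22 for Ighg1, the second highest of 15092 genes with a mean of at least 1 CPM, 2.71 for Ighe and 2.39 for Ighg2c. Ighm had the lowest SD of the 10 genes at 1.36, and the median gene had 0.126. Without vehicle-treated replicate 1, the SD was 0.830 for Ighm, 0.847 for Igkc, 1.14 for Igha and 1.37 for Ighg2b, but still 2.92 for Ighg1. The wide spread of the subclasses is the background against which the treated groups were compared.

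The genes whose within-group pattern over the 21 old bladders was most like a member's were found by Spearman correlation of log2(CPM + 0.1), centred on the group means, among 14934 genes outside the immunoglobulin loci. The bladders share the tissue and its mixture of cells, so these values are a description. For Ighm they were Jchain (rho = 0.953), Derl3, of the endoplasmic reticulum's protein quality control (0.944), and Txndc5, a disulfide isomerase (0.926). Without vehicle-treated replicate 1 the values were 0.926, 0.893 and 0.949. For Ighg2b they were Derl3 (0.899), Il9r (0.857) and Gm5547 (0.821), which became 0.762, 0.681 and 0.645 without that bladder. For Igha they were Ccl9 (0.814), Il6ra (0.810) and Dnajb13 (0.809), which became 0.814, 0.726 and 0.636 without it. For Ighe they were Cep55 (0.703), Cdca8 (0.702) and Bbs9 (0.668), and 0.651, 0.664 and 0.662 without it. Cep55 and Cdca8 act in cell division.

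Between members, the same measure over 21 bladders was 0.935 for Ighm with Igkc and 0.953 for Ighg2b with Igkc. Without vehicle-treated replicate 1 these were 0.815 and 0.907. Ighg1 and Ighe had a rho of 0.748 (0.721 without that bladder). Ighd had a rho of 0.939 with Cr2, a complement receptor of mature and follicular B cells and 0.330 with Jchain, so its pattern was nearer to the B cell gene than to the plasma cell gene.

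**Figure D5:**
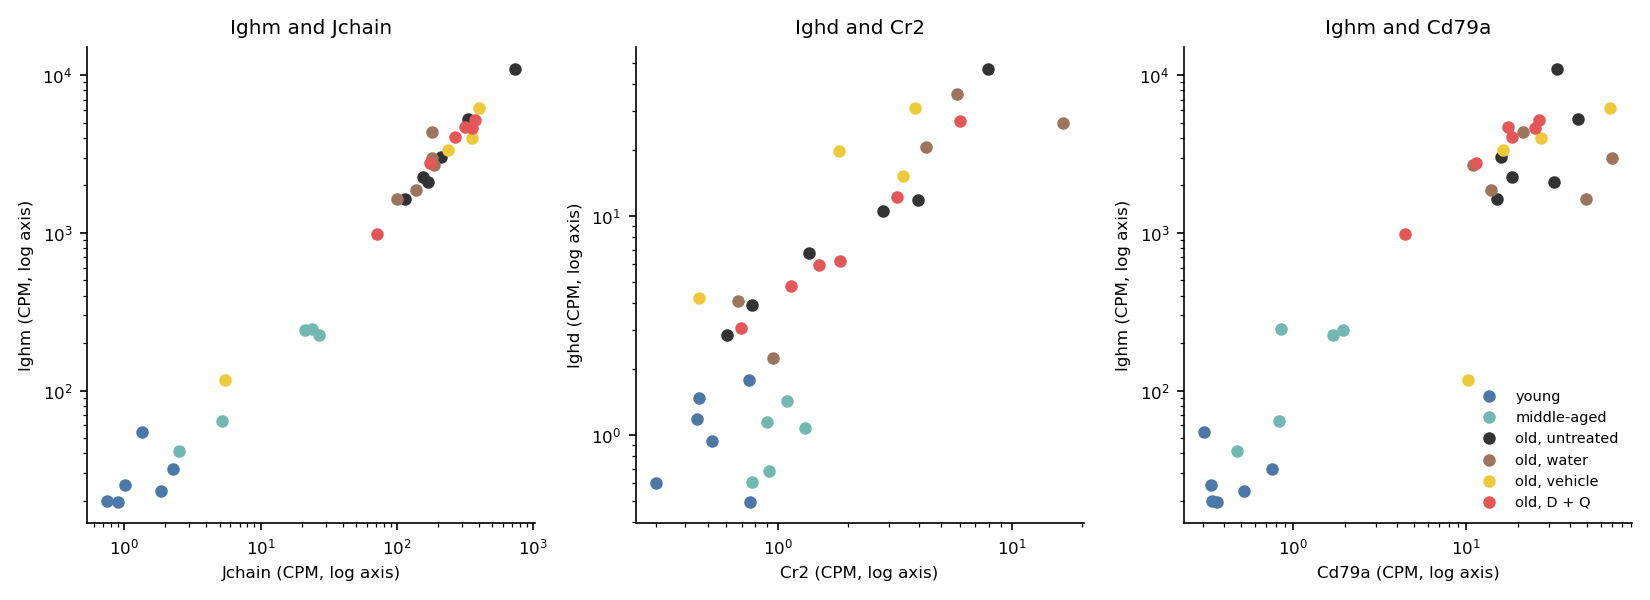
Ighm against Jchain, Ighd against Cr2 and Ighm against Cd79a in CPM on log axes, 1 point per bladder for all 32 bladders, coloured by group. Ighm and Jchain lie along 1 band, with vehicle-treated replicate 1 at 117 and 5.51 CPM below the other old bladders, while in the panel with Cd79a that bladder lies under the rest at 10.3 CPM of Cd79a.

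Genes of the same pathway were read from lists. Of all genes tested, 13.0% rose between middle and old age and 4.96% between young and middle age. In untreated old against middle-aged bladders, 7 of 8 tested genes of B cell identity rose (median log2 fold change 4.28), with Ms4a1, which encodes CD20, up by 5.00 ± 0.42 and Pax5, the B lineage factor, by 4.67 ± 0.54. Of 10 plasma cell and secretion genes, 9 rose (median 2.02), among them Pou2af1 at 4.89 ± 0.46, Mzb1 at 4.56 ± 0.56 and Jchain at 4.17 ± 0.65. Both tested lambda genes outside the members rose, Iglc2 by 5.87 ± 1.46 and Iglc3 by 4.77 ± 0.54. Without untreated old replicate 6, the bladder at 511 CPM, the change of Iglc2 was 2.90 and still passed (adjusted p = 0.000245, edgeR). Between young and middle-aged bladders, 3 of 6 B cell genes and 3 of 10 plasma cell genes rose, Jchain by 3.48 ± 0.55, the same step in which Ighm, Igkc and Iglc1 rose.

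The machinery of class switching changed less than the constant regions it acts on. Of 12 tested genes, 4 rose between middle and old age, beside 13.0% of all genes tested, and 1 fell (median log2 fold change 0.03). The 1 fall has no such share beside it. The list was led by Exo1, an exonuclease that resects DNA, at 1.84 ± 0.27. Batf, a factor that B and T cells need for switching, was at 1.11 ± 0.17.

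Of 8 tested signals that direct switching, 6 rose, beside 13.0% of all genes tested. They were led by Il21, a T follicular helper cytokine, at 4.71 ± 0.74 (7.30 without middle-aged replicate 5) and Il10 at 2.47 ± 0.42. With 1 bladder left out, Il21 had enough counts to be tested in only 6 of 11 fits, and it passed in those 6. Il4, the cytokine known to direct switching to IgG1 and IgE, was at a log2 fold change of -0.10 with an adjusted p of 0.538 (edgeR). Among 10 tested receptors and transporters of antibodies, 7 rose, led by Fcmr, the receptor for IgM, at 4.23 ± 0.37 and Fcgr4, a receptor for IgG2, at 2.71 ± 0.52 (2.12 without untreated old replicate 3). Pigr, which carries IgA and IgM across epithelia, was at 0.85 and did not pass (adjusted p = 0.0874, edgeR), and was at 0.40 without untreated old replicate 3. The chains of the mast cell receptor for IgE, Fcer1a and Ms4a2, were below the count filter and had at most 11 and 10 counts in any library.

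Some markers of other cells also changed between middle and old age, an interval in which 13.0% of all genes tested rose. All 4 T cell markers rose (median log2 fold change 2.35), and their summed level was 7.58 to 10.5 CPM in middle-aged and 26.4 to 58.2 CPM in untreated old bladders. Of 3 tested markers of lymph node vessels and stroma 2 rose, Glycam1 by 4.76 (8.40 without middle-aged replicate 5) and Cxcl13 by 2.33, and the summed level of the list of 6 was 3.82 to 8.63 CPM and 13.8 to 35.8 CPM, with Ccl21a at 0 counts in both groups. Of 3 erythroid markers 1 rose, with a sum of 64.7 to 120 CPM in middle-aged and 61.0 to 483 CPM in untreated old bladders. Among 6 urothelial markers 3 fell (median -0.15), 1 of 4 smooth muscle markers fell, and 0 of 4 adipocyte markers passed the test. The share of all genes that fell is not given here, so these falls have no background beside them. The part of these cells in the constant region levels was not tested. In the comparison of D + Q with untreated old bladders, 0 genes of any list passed, while the erythroid sum, 61.0 to 483 CPM in untreated old bladders, was 186 to 2780 CPM after D + Q.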

How the data were processed

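RNA of 32 whole bladders was sequenced, and the submitters' processing notes name STAR 2.7.3, Subread and build mm10. The authors deposited raw read counts per gene, with 1 column per bladder and no normalization; how reads were assigned by strand or when they matched several genes is not given in the sources used here. A second deposited table of the authors, on a log2 scale, was not used, since counts allow a count model. Library totals ran from 15088372 to 52650259 counts. Ensembl identifiers were matched to symbols for 32158 of 32285 genes.

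Genes low in both groups of a comparison were left out with edgeR's filterByExpr, libraries were scaled by TMM, and each pair of groups was tested with edgeR 4.0.16 (glmQLFit and glmQLFTest, R 4.3.3), with Benjamini-Hochberg adjustment over all genes tested and a threshold of 0.05. CPM used TMM-scaled totals over all libraries, and TPM used annotated exon lengths. Differences in mean share were tested by exact permutation, two-sided (scipy 1.17.1). A detection limit of 3 counts per library and 95% Wilson intervals cover counting error only. Sequences were read from the mm10 genome with the GENCODE M21 annotation. Alternatives were DESeq2 1.42.0, other scaling, other filters, all 6 groups in 1 model, a replicate block by number, and removal of 1 bladder at a time. The scripts were checked on simulated counts with 200 planted genes. The labels number the replicates and say no more of their origin, so p-values measure only the spread between these samples, which may in part be technical.

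All 10 members are named throughout. From each pathway list the 2 genes with the largest change among those past the threshold in untreated old against middle-aged bladders are named, with Jchain, Pigr, Fcer1a and Ms4a2 whatever their values, and the 3 genes most like Ighm, Igha, Ighg2b and Ighe. Il4, Cd79a, Cr2, Iglc2 by bladder and the markers of other cells were named after their values were seen. The members and lists were chosen with earlier results of these data known. No library was left out. Some genes that the rule would name are not reported here.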

Additional observations from a re-analysis of the deposited data

Results flagged for a closer look

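Of 116 groups of levels and shares of the 10 genes, 28 held a bladder whose gap to the nearest other exceeded Dixon's 95% critical value. Chance alone gives about 1 in 20 groups only where values are normally distributed, and shares are bounded at 0. The values of 1 bladder are also not independent of each other. The number of 28 therefore cannot be read against that rate. Levels were examined as log2(CPM + 0.1) and shares in percent. The values of the outlying bladder are given here with the range of the others in its group.

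Vehicle-treated replicate 1 was low in Ighm (117 CPM, others 3372 to 6193), Ighg2b (2.10 CPM, others 269 to 542), Igha (1.57 CPM, others 94.6 to 191) and Igkc (50.9 CPM, others 1951 to 3815). Its share of Ighd was high, at 2.29% (others 0.148 to 0.498%). Vehicle-treated replicate 3 had an Iglc1 share of 3.87% (others 0.331 to 0.785%), and replicate 4 an Ighg3 share of 12.02% (others 0.285 to 1.80%).

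In the untreated old group, replicate 2 had high shares of Ighd (1.26%, others 0.0518 to 0.183%), Ighg1 (4.95%, others 0.00690 to 1.44%) and Ighe (1.09%, others 0.00177 to 0.290%). Replicate 5 had an Iglc1 share of 2.51% (others 0.170 to 0.633%) and replicate 6 an Ighg3 share of 3.07% (others 0.112 to 0.672%).

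In the water group, replicate 3 had low Ighg2b (7.59 CPM, others 70.2 to 154), a low Igkc share (12.8%, others 30.6 to 35.4%) and a high Iglc1 share (13.8%, others 0.353 to 1.25%). Replicate 2 was high in Ighg3, at 59.4 CPM (others 7.40 to 8.62) and a share of 1.09% (others 0.127 to 0.236%).

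In the D + Q group, replicate 6 was high in Ighg3, at 189 CPM (others 9.93 to 25.6) and a share of 9.34% (others 0.156 to 0.355%), high in its Igha share (4.77%, others 0.582 to 1.58%) and low in Igkc (687 CPM, others 2127 to 3116). Replicate 2 had an Iglc1 share of 1.92% (others 0.179 to 0.548%) and replicate 4 an Ighg2c share of 5.47% (others 0.742 to 2.28%).

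In the middle-aged group, replicate 2 had a high Ighd share (1.83%, others 0.152 to 0.549%) and low Ighg2b (0.285 CPM, others 5.22 to 12.5), and replicate 3 a high Ighg2c share (17.4%, others 0.108 to 3.74%). In the young group, replicate 2 was high in Ighg3, at 0.337 CPM (others 0 to 0.0291) and a share of 0.534% (others 0 to 0.0701%).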

How the results depend on the processing

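The count of members that rose between young and middle-aged bladders was 5, and it was 2 with at least 10 counts in every bladder (3 members tested), 3 with all 6 groups in 1 model, and 5 to 7 with 1 bladder left out. Between middle and old age it was 8, and 5 with at least 10 counts in every bladder (5 tested), 9 with DESeq2 or all 6 groups, and 7 to 8 with 1 bladder left out. The other 4 comparisons kept 0 in all alternatives. With heavy and light chains apart, 1 share in place of 3 differed between young and middle-aged bladders, and leaving out 1 bladder gave 3 to 4, 1 to 2 between middle and old age, and 0 to 1 for each treated group. With bladders matched by the replicate number of the sample titles, correlations ran from -0.37 to 0.26. In the middle-aged, water and vehicle groups some count columns carry a different number from the title. For comparisons with these groups the check therefore cannot decide whether the original numbers pair the bladders. With the title number as a replicate block 5 and 7 members rose in the age comparisons. Under the block, the rise of Ighm at middle age had an adjusted p of 0.0514 (edgeR's quasi-likelihood test), and in D + Q against untreated old bladders Ighm was 0.17, Ighg2c 1.19 and Igkc 0.21; Ighm in the vehicle group was 0.15.

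Leaving out 1 bladder turned the sign of several values that had passed no test. Ighd at middle age ran from -0.26 to 0.070. In D + Q against untreated old bladders, Ighm ran from -0.35 to 0.38, Ighd from -1.11 to 0.46, Ighg3 from -2.72 to 1.04, Ighg1 from -0.022 to 1.54, Ighg2c from -1.66 to 0.71, Igkc from -0.30 to 0.37 and Iglc1 from -0.76 to 0.91. Ighm ran from -0.76 to 0.26 in the vehicle group and from -0.28 to 0.58 in D + Q against vehicle. The cause was not tested.

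The rise of Ighg2b (adjusted p = 0.0578) and Iglc1 (0.374) at middle age was lost with all 6 groups in 1 edgeR model. Igha at middle age passed with DESeq2 (0.0385), the replicate block (0.0162) or without middle-aged replicate 2 (0.0402) or 4 (0.0490). Ighg2c at old age passed with DESeq2 (0.0347) and all 6 groups (0.0399). The rank correlations, alternatives added after the data were seen, moved by under 0.1 in 20 of 24 cases. Levels under 3 counts, as for Iglc1 and Ighg3 in young bladders, are limited by depth.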
